A study of Mus musculus with 112 samples.

Results

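Mammary tumours of mice carrying the MMTV-PyMT transgene were split by their level of Krt14, the type I keratin of basal epithelial cells, and the 17 highest were compared with the 17 lowest. The series holds 56 such tumours from crosses with 18 AKXD sublines, recombinant inbred lines bred from a cross of AKR/J with DBA/2J mice. The transgene puts the polyoma middle T antigen under the mouse mammary tumour virus promoter, which is active mainly in mammary epithelium, and it was carried by every animal in all groups. No treatment, age or transgene-free control is given in the labels. Each tumour was hybridised to 2 Affymetrix arrays, called A and B here, and the values are log2 levels from RMA (robust multi-array average). Of the 56 tumours, 52 in 17 sublines were ranked. All of subline 23 and tumour 3 of subline 25 were left out by the rule that set the groups. The median correlation of their arrays A with the other arrays was 0.223 to 0.948, against 0.970 to 0.991 for the arrays kept. On array B it was 0.858 to 0.989, against 0.973 to 0.991 for the arrays kept, so the ranges overlap there.

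The Krt14-high and Krt14-low tumours were selected on a measured value, the brightest of the 3 Krt14 probe sets of array A, so the Krt14 difference itself is a description and was not tested. The Krt14-high tumours lay between 9.74 and 10.53, with a median of 10.10. The Krt14-low tumours lay between 8.42 and 9.35, with a median of 9.05. The 18 tumours between them ran without a gap, since the highest of these read 9.72 and the lowest 9.38. The mean of the Krt14-high tumours stood 1.03 above that of the Krt14-low tumours on the log2 scale, a 2.05-fold difference, and the whole ranking spanned 4.31-fold. The cuts at rank 17 from either end fall within a continuous range. A second Krt14 probe set ran from 8.86 to 10.02 in the Krt14-high and from 7.73 to 8.63 in the Krt14-low tumours, again without overlap. The dimmest one overlapped widely, at 6.05 to 6.59 in the Krt14-high and 5.95 to 6.52 in the Krt14-low tumours. The name of the ranking probe set carries the manufacturer's mark for probes that may match other transcripts.

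**Figure D1:**
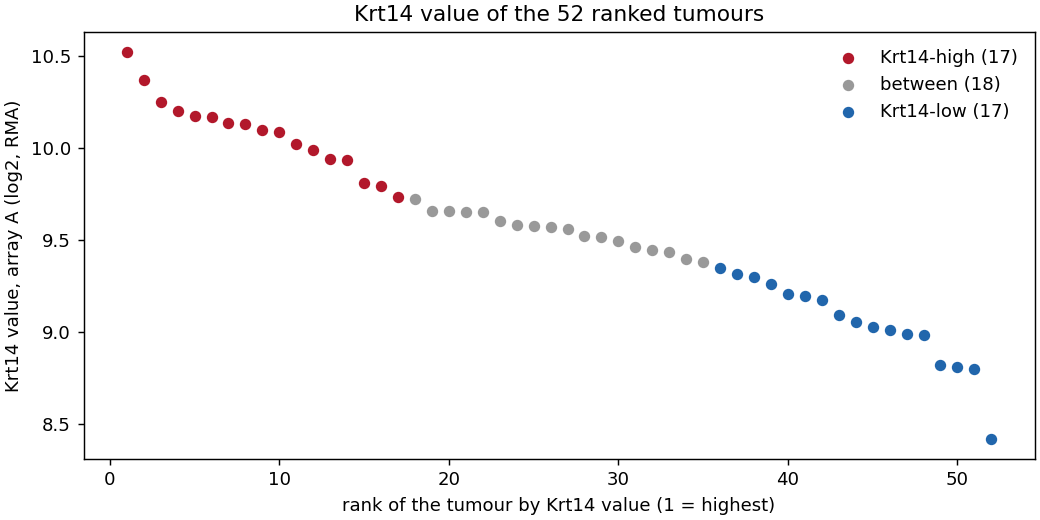
Krt14 value on array A (log2, RMA) of the 52 ranked tumours, from the highest to the lowest, coloured by group. The 17 Krt14-high tumours (9.74 to 10.53), the 18 between and the 17 Krt14-low tumours (8.42 to 9.35) form 1 continuous range.

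In the normal mammary gland, basal cells that lie on the basement membrane make keratins 5 and 14, while luminal cells make keratins 8 and 18. A type II keratin such as keratin 5 pairs with a type I keratin such as keratin 14 to build filaments, which are anchored at hemidesmosomes and desmosomes. Myoepithelial cells, the mature basal cells, also carry a smooth-muscle contractile apparatus, and tumours driven by PyMT are known as mainly luminal. The ranges of the luminal keratins overlapped between the Krt14-high and Krt14-low tumours. Krt18 ran from 12.58 to 13.10 in the Krt14-high and from 11.95 to 13.15 in the Krt14-low tumours. Krt8 ran from 12.40 to 12.81 in the Krt14-high and from 11.60 to 12.94 in the Krt14-low tumours.

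Krt14 levels differed within sublines about as much as across the panel. The SD of the Krt14 value was 0.483 within sublines and 0.461 over all 52 tumours. Of the 17 sublines, 9 held both Krt14-high and Krt14-low tumours, 3 held only high and between ones, 3 only low and between ones, and 2 only tumours in between. In subline 16 the tumours ranged from 8.81 to 10.53, and in subline 14 from 8.42 to 10.13. Tumours of sublines 9 and 24 all lay between the groups, within 9.45 to 9.66 and 9.43 to 9.65. Subline means ran from 9.19 in subline 22 to 10.02 in subline 28.

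**Figure D2:**
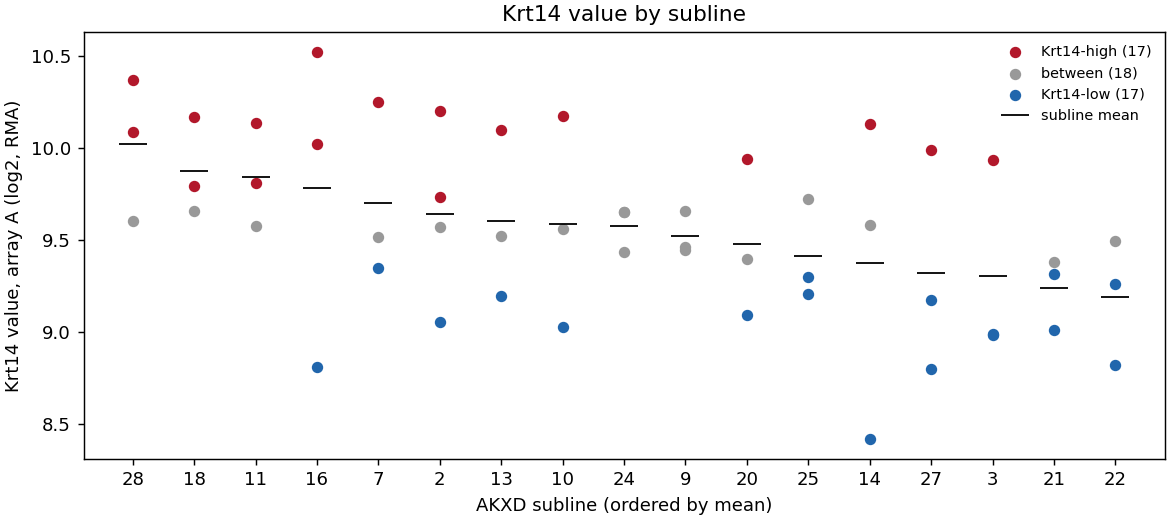
Krt14 value on array A (log2, RMA) of each ranked tumour by AKXD subline, with the subline mean as a black line, ordered by that mean. High and low tumours occur together in 9 sublines, and the means run from 10.02 in subline 28 to 9.19 in subline 22.

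Only a few genes separated the groups. On array A 4 of 22623 probe sets were called by limma at a Benjamini-Hochberg adjusted p under 0.05, a percent called of 0.0177, and all 4 were higher in the Krt14-high tumours. They belonged to Krt5, the type II partner of keratin 14, Krt15, a type I keratin of basal epidermal and hair follicle stem cells, Trim29, a TRIM-family protein made in basal epithelia, and Gart, an enzyme of purine synthesis. On array B none of 22511 probe sets was called by limma (percent called 0), although 1849 had an unadjusted p under 0.05; on array A 2572 did. In bulk tumours, fewer cells of a type and less RNA per cell cannot be told apart. The tumours of a subline are labelled as biological replicates with a replicate number each. The comparison had no subline term, so each p reflects the spread between tumours, both within and across sublines.

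The 4 calls were few in number and moved with the tumours used. With each replicate number left out in turn the count was 0, 2 and 1. It was 8 without subline 2, 10 without subline 14 and 21 without subline 21. With subline as a fixed block, which compares tumours within sublines, 1 probe set was called. With subline as a random block the same 4 were called. Widening the groups to 26 against 26 gave 1, narrowing them to 13 against 13 gave 192, ranking by the second Krt14 probe set gave 46, and array quality weights gave 204. The 3 Krt14 probe sets were kept out of the adjustment because the rule had used them. Keeping them in gave 7, but 2 of these are Krt14 probe sets, whose outcome the ranking fixes, and the third addition, a Krt17 probe set, passes only with them in.

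Krt5 had the clearest difference among the keratins not used for the ranking. Its only probe set on array A ran from 9.10 through a median of 9.77 to 10.74 in the Krt14-high tumours. In the Krt14-low tumours it ran from 8.21 through a median of 9.00 to 9.46. The ranges overlap, yet 13 of 17 Krt14-high tumours lay above every Krt14-low tumour and all 17 lay above the Krt14-low median. The mean was 0.79 ± 0.12 higher in the Krt14-high tumours (log2, SE), a 1.73-fold difference (limma adjusted p = 0.00202). In all 9 sublines with both groups the Krt14-high tumours had the higher mean. The call was lost with subline as a fixed block (0.70 ± 0.17, limma adjusted p = 0.177) and without replicate 1, 2 or 3. Krt5 averaged 9.75 ± 0.42 in the Krt14-high tumours (SD, n = 17), 9.38 ± 0.26 in those between (SD, n = 18) and 8.96 ± 0.32 in the Krt14-low tumours (SD, n = 17).

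Since Krt14 and Krt5 vary together, the 250 bases before each annotated start are shown, from RefSeq on GRCm38.p6. The Krt14 stretch is chr11:100206031-100206280 and the Krt5 stretch is chr15:101712906-101713155, both on the minus strand. Capitals mark the matches to the motifs searched on both strands.

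Krt14: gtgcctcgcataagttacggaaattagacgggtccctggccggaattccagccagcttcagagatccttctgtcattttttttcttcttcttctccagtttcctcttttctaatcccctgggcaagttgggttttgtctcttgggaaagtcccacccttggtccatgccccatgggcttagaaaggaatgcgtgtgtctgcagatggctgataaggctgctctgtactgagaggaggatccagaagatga

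Krt5: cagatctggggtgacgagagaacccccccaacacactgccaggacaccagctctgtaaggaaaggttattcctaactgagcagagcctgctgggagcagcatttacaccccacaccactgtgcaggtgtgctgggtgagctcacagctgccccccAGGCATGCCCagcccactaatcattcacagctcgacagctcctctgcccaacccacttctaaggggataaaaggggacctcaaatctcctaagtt

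Searched were TGANTCA, the AP-1 site, TATAAA, and the p53-family half-site, which p63 of basal epithelia also binds. Krt5 held 1 half-site, beginning 95 bases before the start, and none of the others. The Krt14 window held none of the 3. Whether transcription in these tumours begins at the annotated starts was not tested. Among 32851 promoter windows of the same length, 7.13% held a half-site, 6.75% TGANTCA and 12.4% TATAAA. Such matches describe these letters only.

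Krt15 showed the largest fold among the called genes. Its probe set ran from 6.89 through 8.18 to 8.91 in the Krt14-high tumours and from 6.86 through 7.13 to 8.09 in the Krt14-low tumours (lowest, median, highest). Only 10 of 17 Krt14-high tumours lay above every Krt14-low tumour. The count is set by 2 Krt14-low tumours at 8.09 and 7.99, above the next at 7.42, and 1 Krt14-high tumour read 6.89. The mean difference was 0.86 ± 0.14 (log2, SE), or 1.81-fold (limma adjusted p = 0.00204). Krt15 was the 1 call that held with subline as a fixed block, at 0.79 ± 0.12 (limma adjusted p = 0.0291), and its difference was positive in 9 of 9 sublines. It was lost without replicate 1 or 3, in the 26 against 26 comparison and when tumours were ranked by Krt5.

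Trim29 ran from 8.44 through 8.67 to 9.40 in the Krt14-high tumours and from 8.03 through 8.24 to 8.59 in the Krt14-low tumours. All 17 Krt14-high tumours lay above the Krt14-low median, and 15 of 17 Krt14-low tumours lay below every Krt14-high one. The mean was 0.45 ± 0.07 higher (log2, SE), a 1.37-fold difference (limma adjusted p = 0.00202). Within sublines it was 0.36 ± 0.08 and no longer called (limma adjusted p = 0.176), and the call was also lost without replicate 1 or 2, in the 26 against 26 comparison and when tumours were ranked by Krt5. Tumour 3 of subline 16, the tumour with the highest Krt14 value, was also the highest of the 52 for Trim29 and Krt5. Without it the difference was 0.41 ± 0.06 for Trim29 and 0.73 ± 0.11 for Krt5, and both remained called (limma adjusted p = 0.000278 and 0.00159).

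Gart was the weakest of the 4. The called probe set ran from 9.47 through 9.70 to 10.00 in the Krt14-high tumours and from 9.18 through 9.42 to 9.80 in the Krt14-low tumours. The ranges overlap, and only 2 of 17 Krt14-high tumours lay above every Krt14-low tumour. Yet 12 of 17 Krt14-low tumours lay below every Krt14-high one, and all 17 Krt14-high tumours lay above the Krt14-low median. The mean difference was 0.27 ± 0.05 (log2, SE), or 1.20-fold (limma adjusted p = 0.0394). The other 2 array A probe sets of Gart differed by 0.08 and 0.17 and were not called (limma adjusted p = 0.550 and 0.377). Gart lost its call in 23 of 37 alternatives, among them leaving out tumour 3 of subline 16 (limma adjusted p = 0.0616).

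**Figure D3:**
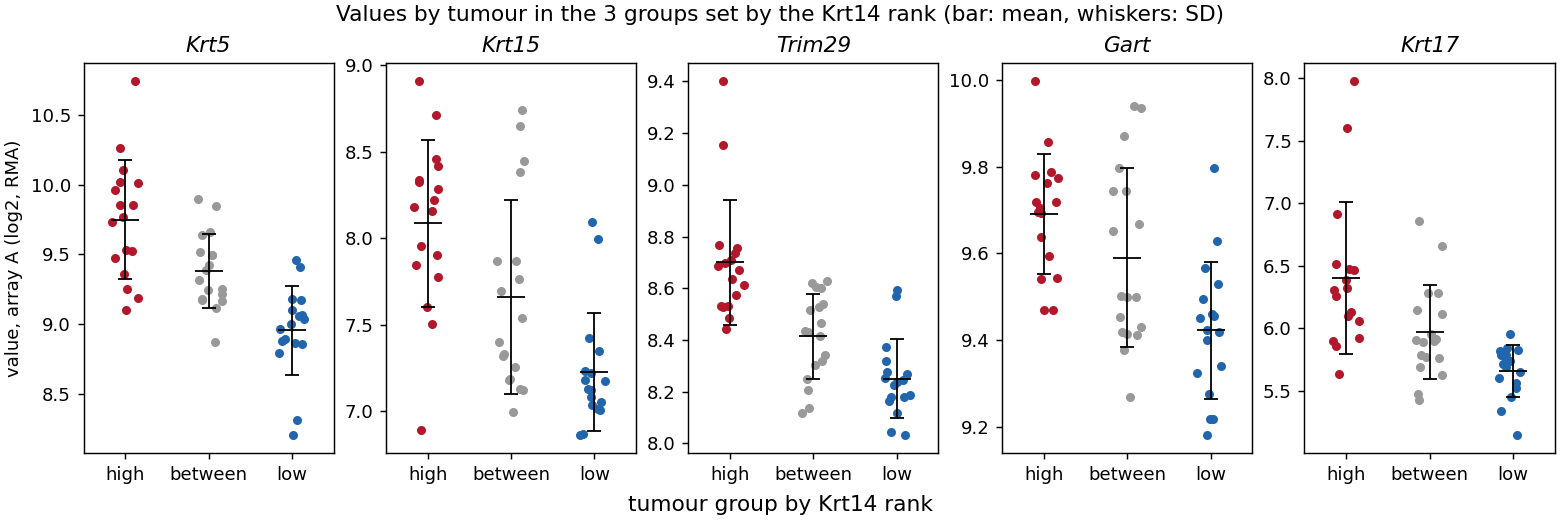
Values on array A (log2, RMA) of the 4 called genes and of the dimmer Krt17 probe set, 1 point per tumour, in the Krt14-high (17), between (18) and Krt14-low (17) tumours. Bars are means and whiskers SDs; the groups overlap for every gene, and the tumours between lie on average between the others.

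Among the other basal keratins, all of them markers of basal or stressed stratified epithelium, no member passed the test. By the brightest probe set, the 6 keratins tested beside Krt14 all had positive differences, with a median of 0.24, against a median of -0.00318 over all probe sets of array A. Of all probe sets 47.8% had a positive difference on array A and 42.2% on array B. These shares stand beside the direction counts of the lists below. Krt17, a type I keratin of basal and hair follicle cells, depended on the probe set. The dimmer one ran from 5.64 through 6.30 to 7.98 in the Krt14-high tumours and from 5.15 through 5.72 to 5.95 in the Krt14-low tumours, 0.74 ± 0.15 higher but short of the threshold (limma adjusted p = 0.0646). Its slightly brighter probe set differed by 0.0019 ± 0.04. For Krt6a, Krt6b and Krt16, induced in wounded and hyperproliferative epidermis, the differences were 0.23 ± 0.14, 0.22 ± 0.16 and 0.26 ± 0.16. These rest on a few tumours, since the medians of Krt6a were 7.91 in the Krt14-high and 7.93 in the Krt14-low tumours while the maxima were 10.20 and 8.12.

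Hemidesmosome genes, which anchor keratin filaments to the basement membrane, went in both directions. Of 12 genes of hemidesmosomes and basement membrane adhesion 0 were called, 4 had positive and 8 negative differences, and the median was -0.08. Col17a1, the transmembrane collagen of hemidesmosomes, ran from 6.29 through 6.69 to 7.40 in the Krt14-high tumours and from 6.02 through 6.29 to 7.20 in the Krt14-low tumours, a difference of 0.39 ± 0.10 (limma adjusted p = 0.116). Dst, a linker of keratins to hemidesmosomes, gave -0.26 ± 0.10 by its brightest probe set but 0.33 ± 0.08 by its dimmest. Lama5, a laminin chain, differed by -0.18 ± 0.08 and Itga6, an integrin chain of hemidesmosomes, by 0.10 ± 0.06.

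Desmosome and keratinocyte adhesion genes leaned towards the Krt14-high tumours without a call. Of 13 genes 11 had positive differences and the median was 0.13. Sfn, the keratinocyte 14-3-3 protein, ran from 8.03 through 8.46 to 9.38 in the Krt14-high tumours and from 7.84 through 8.10 to 8.85 in the Krt14-low tumours, a difference of 0.30 ± 0.09 (limma adjusted p = 0.147). Dsp, the plaque protein that ties keratins to desmosomes, differed by 0.61 ± 0.26 and varied widely within both groups. Pkp1 and Dsc2, other desmosome proteins, differed by 0.19 ± 0.10 and 0.12 ± 0.07.

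Of the 13 contractile genes of mature myoepithelial cells 0 were called, and the median difference was -0.04. By limma 0 of 13 had an unadjusted p under 0.05, against 11.4% of all probe sets of array A, a share at which few of 13 would be counted. Acta2, the smooth muscle actin most used to mark myoepithelium and named here after its values were seen, ran from 10.19 through 10.63 to 11.43 in the Krt14-high tumours and from 10.09 through 10.55 to 12.62 in the Krt14-low tumours. Its difference was 0.01 ± 0.17, and 10 of 17 Krt14-high tumours lay above the Krt14-low median. Myh11 and Tpm2, a smooth muscle myosin and a tropomyosin, both differed by -0.13, with SEs of 0.10 and 0.12. Relative to each gene's mean, the list ran from -0.28 through -0.04 to 0.23 in the Krt14-high tumours (lowest, median, highest). In the Krt14-low tumours it ran from -0.28 through -0.08 to 1.05, the last in tumour 1 of subline 21. By these medians the Krt14-high tumours stood slightly higher, unlike the median difference of the genes.

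Transcription factors and signals of the basal layer were mixed, with 11 of 19 positive, 0 called and a median of 0.01. Bcl11b, a zinc finger factor of skin and basal mammary cells, differed by 0.44 ± 0.14, Snai2 by 0.12 ± 0.04, Sox10 by -0.13 ± 0.06 and Egr2 by 0.14 ± 0.06, none of them called. Snai2 was dim, with means of 5.07 in the Krt14-high and 4.95 in the Krt14-low tumours. Values on array A ran from 3.71 to 14.89. Trp63, which encodes p63, the master factor of stratified epithelia, was looked at after its values were seen. Its array B probe set ran from 5.97 to 6.38 in the Krt14-high and from 5.82 to 6.12 in the Krt14-low tumours, a difference of 0.16 ± 0.03 (limma adjusted p = 0.167). On array A the brightest of its 3 probe sets differed by 0.21 ± 0.10 and another by 0.58 ± 0.19, also without a call.

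Epidermal differentiation and hair follicle genes, which mark squamous and follicle-like cells, were higher on average, but much of it came from single tumours. Of 26 epidermal differentiation genes 24 had positive differences, 0 were called and the median was 0.19; of 22 hair follicle genes the numbers were 20, 0 and 0.12. Krt10, the keratin of suprabasal epidermis, ran from 6.88 through 7.11 to 9.60 in the Krt14-high tumours and from 6.71 through 6.93 to 7.27 in the Krt14-low tumours. Its mean difference of 0.56 ± 0.20 (limma adjusted p = 0.245) is far larger than the difference of its medians. Calml3 differed by 0.45 ± 0.15, Lgals7 by 0.55 ± 0.21 and Tgm1, the transglutaminase of the cornified envelope, by 0.25 ± 0.10. Of the follicle genes, Padi3, a peptidylarginine deiminase, differed by 0.51 ± 0.14, Krtap8-1 by 0.45 ± 0.20, Krt28 by 0.16 ± 0.07 and Tchh, which encodes trichohyalin, by 0.93 ± 0.44. Krt28, measured on array B, was dim, with means of 4.68 in the Krt14-high and 4.52 in the Krt14-low tumours.

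Tumour 3 of subline 16 stood at the top of these programmes. Its mean level of the epidermal differentiation genes, relative to each gene's mean over 52 tumours, was 1.43 on the log2 scale. The other 16 Krt14-high tumours lay between -0.18 and 0.63, with a median of 0.02, and the Krt14-low tumours between -0.26 and 0.08, with a median of -0.08. For hair follicle genes the values were 1.53 in that tumour, -0.27 to 0.53 in the other Krt14-high tumours and -0.27 to 0.19 in the Krt14-low tumours.

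No luminal or milk protein gene was called between the Krt14-high and Krt14-low tumours. Of 22 luminal genes 0 were called and the median was -0.04, with Kit, the receptor of luminal progenitors, at -0.34 ± 0.12, Aldh1a3 at -0.29 ± 0.10, Pgr, the progesterone receptor, at -0.13 ± 0.04 and Cldn4, a tight junction claudin, at 0.37 ± 0.17. Pgr was dim, with means of 5.26 in the Krt14-high and 5.40 in the Krt14-low tumours. All 16 milk protein genes had negative differences, with a median of -0.19 and none called. Glycam1, a milk mucin, ran from 6.04 through 6.79 to 11.07 in the Krt14-high tumours and from 5.97 through 8.87 to 12.17 in the Krt14-low tumours, -1.12 ± 0.59, and Olah differed by -0.22 ± 0.12. The ranges of both groups cover most of the scale, so the spread within a group exceeded the difference.

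Adipocyte, skeletal muscle and endothelial markers had mostly negative differences, and no marker of another cell type was called. The medians were -0.22 over 13 adipocyte genes, of which 13 were negative, -0.32 over 16 skeletal muscle genes, of which 15 were negative, and -0.10 over 15 endothelial genes, of which 14 were negative. For T cells the median was -0.07, for B and plasma cells -0.10, for macrophages -0.04, for neutrophils -0.07, for fibroblasts and matrix -0.01, for pericytes -0.06, for glia and nerve -0.07 and for salivary gland -0.09. Single genes named from these lists were Retn (-0.42 ± 0.16), Mb (-0.27 ± 0.19), Cdh5 (-0.25 ± 0.07), Cd2 (-0.17 ± 0.06), Cd22 (-0.12 ± 0.06), Cd163 (-0.23 ± 0.15), Pmp22 (-0.32 ± 0.12) and S100a8 (0.65 ± 0.26). Skeletal muscle content varied far more within the groups than between them. Relative to each gene's mean, its genes ran from -2.37 to 2.08 in the Krt14-high and from -2.31 to 2.58 in the Krt14-low tumours. The medians over tumours were -0.22 and -0.25, so by them the Krt14-high tumours did not stand lower. A fit with 4 composition scores as covariates (the mean levels of the skeletal muscle, adipocyte, T cell and B cell lists) called 4 probe sets on array A, 3 of them among the original 4. The part of these or other cell types in the keratin differences was not tested. The 3' minus 5' difference of control probe sets is a mark of RNA integrity. On array A its median for Actb was 0.163 in the Krt14-high and 0.285 in the Krt14-low tumours. For Gapdh the medians were -0.183 and -0.175. The part of RNA integrity was not tested.

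**Figure D4:**
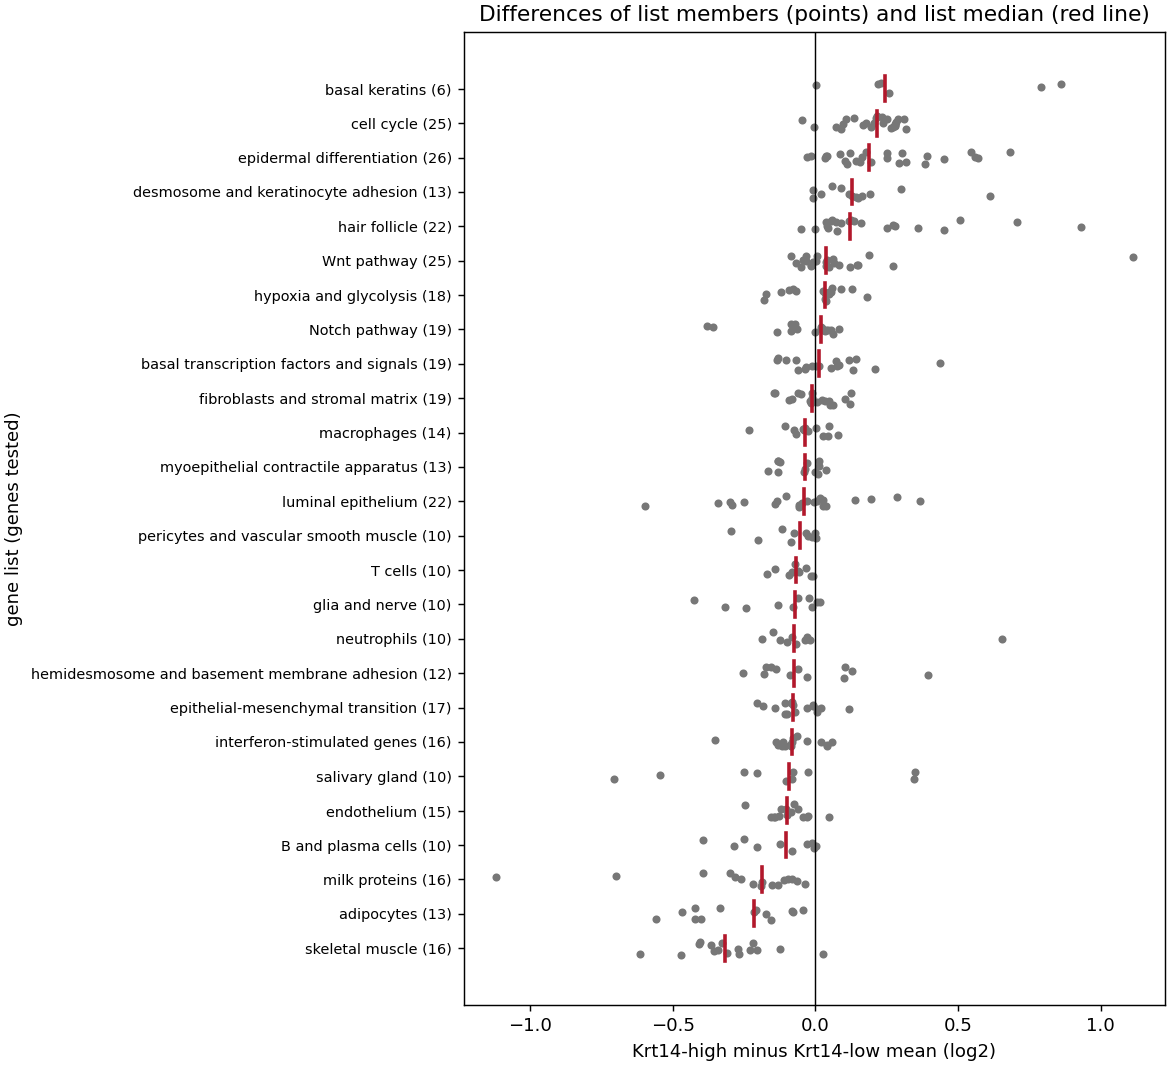
Difference of the Krt14-high minus the Krt14-low mean (log2) for each gene of 26 lists, 1 point per gene by its brightest probe set, with the list median as a red line. Basal keratins (0.24), cell cycle (0.22) and epidermal differentiation (0.19) have the highest medians, skeletal muscle (-0.32) the lowest.

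Most cell cycle genes leaned towards the Krt14-high tumours, with none called. Of 25 genes 23 had positive differences, with a median of 0.22, and 18 had an unadjusted p under 0.05, or 72.0% against 11.4% of all probe sets of array A, but 0 were called. The 11.4% covers dim probe sets too, while the list uses the brightest of each gene. With the dimmer probe sets left out, 1785 of 11311 had an unadjusted p under 0.05 by limma. Bub1b, a spindle checkpoint kinase, ran from 9.02 through 9.43 to 9.74 in the Krt14-high tumours and from 8.65 through 9.15 to 9.51 in the Krt14-low tumours, a difference of 0.29 ± 0.07 (limma adjusted p = 0.0958). Mcm7 and Mcm6, subunits of the replicative helicase, differed by 0.27 ± 0.07 and 0.24 ± 0.06, and Ccnb2, a mitotic cyclin, by 0.32 ± 0.08. The groups overlapped for all of these genes. Relative to each gene's mean, the list ran from -0.23 to 0.42 in the Krt14-high and from -0.52 to 0.12 in the Krt14-low tumours.

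In the Wnt and Notch pathways no gene was called, with medians of 0.04 over 25 and 0.02 over 19 genes. Wif1, a secreted Wnt inhibitor, had the largest positive difference of array A at 1.11 ± 0.47, running from 4.04 through 6.72 to 9.22 in the Krt14-high tumours and from 4.08 through 4.91 to 8.55 in the Krt14-low tumours (limma adjusted p = 0.343). Both groups spanned nearly the same range, so its size is not matched by its precision. The Wnt receptor Fzd7 differed by 0.27 ± 0.07 and the inhibitor Sostdc1 by 0.19 ± 0.06. In the Notch list the target Hey1 differed by -0.38 ± 0.12, the receptor Notch4 by -0.14 ± 0.06 and the ligand Dll1 by -0.36 ± 0.15. The medians were -0.08 for epithelial-mesenchymal transition, -0.08 for interferon-stimulated genes and 0.03 for hypoxia and glycolysis, each with 0 called. Relative to each gene's mean, the transition list had a median of -0.04 in the Krt14-high and -0.08 in the Krt14-low tumours. Tumour 1 of subline 21, a Krt14-low tumour, had its highest value at 0.82.

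Using all 52 tumours, the level of every probe set was also fitted as a slope on the Krt14 value. Tumour 3 of subline 11, which lay between the groups, was left out on array B. This fit was listed among the alternatives, but it is given room here because it made more calls than the comparison of groups, a choice made after both counts were seen. On array A 714 of 22623 probe sets had a slope at an adjusted p under 0.05 by limma, a percent called of 3.16, 608 positive and 106 negative, and the 4 genes above were among them. After quantile normalization the split was 495 positive and 167 negative. On array B 0 of 22511 were called (percent called 0), with 1976 at an unadjusted p under 0.05 by limma. The number rests on particular tumours. It was 245 without tumour 3 of subline 16, and 383, 369 and 1 without replicates 1, 2 and 3. Without subline 2, 3, 14, 16 or 28 it was 308, 436, 1429, 381 or 379. With the epidermal differentiation score as a covariate 118 were called, with 4 composition scores 360, and with Krt5 in place of Krt14 332. Within sublines, with subline as a fixed block, 487 were called, of which 335 were among the 714.

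Krt5 had the slope with the smallest p, at 0.78 ± 0.09 log2 units per log2 unit of Krt14 (SE, n = 52 tumours, limma adjusted p = 1.38e-07), and it was the 1 probe set called without replicate 3. The dimmer Krt17 probe set, at 0.72 ± 0.12, and Krt15, at 0.75 ± 0.14, also rose with Krt14. Trim29 rose by 0.38 ± 0.06 per unit. Of the adhesion and epidermal genes, Col17a1 (0.39 ± 0.08), Sfn (0.35 ± 0.06), Padi3 (0.52 ± 0.11) and Krt10 (0.56 ± 0.14) were called, while Dsp, Calml3, Lgals7, Tgm1 and Tchh were not. Krt10 lost its call without tumour 3 of subline 16 (0.37 ± 0.12, limma adjusted p = 0.117). All of Col17a1, Sfn, Padi3 and Krt10 lost it with the epidermal differentiation score as a covariate and without replicate 3. Krt10 is itself among the genes of that score, so its loss with the score is partly built in. No gene of the contractile list had a called slope.

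Of the cell cycle list 15 of 25 genes had a called positive slope, against 3.16% of all probe sets, with Ccnb2 at 0.32 ± 0.06 and Bub1b at 0.27 ± 0.06. Without tumour 3 of subline 16 this count was 9, within sublines 12, with the epidermal differentiation score as a covariate 2, and without replicate 3 it was 0. The 3.16% covers dim probe sets too, while the list uses the brightest probe set of each gene. With the dimmer probe sets of array A left out, 787 of 11311 had a called slope in either direction. Fzd7 (0.23 ± 0.06) and Sostdc1 (0.19 ± 0.05) also rose with Krt14, and Hey1 (-0.33 ± 0.10) and Kit (-0.32 ± 0.09) fell. All 4 lost their call without tumour 3 of subline 16, without replicate 3 and with the epidermal differentiation score as a covariate, and Sostdc1, Hey1 and Kit also lost it within sublines.

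Beyond the lists, the 8 genes with the smallest p in each direction were taken, whatever the size of the slope, a rule set after the slope counts were seen. Besides Krt5, Krt17 and Trim29, the positive ones were Ddx21, an RNA helicase of the nucleolus (0.30 ± 0.04), Ybx1, a Y-box nucleic acid binding protein (0.17 ± 0.03), Ahcy, the hydrolase of S-adenosylhomocysteine (0.28 ± 0.05), Ipo5, a nuclear import receptor (0.19 ± 0.03), and Pbdc1 (0.27 ± 0.05). The negative ones were Sorl1, a sorting receptor (-0.43 ± 0.09), Aqp5, a water channel (-0.29 ± 0.07), Nrbp2 (-0.29 ± 0.06), Pbxip1 (-0.27 ± 0.06), Flvcr2 (-0.27 ± 0.06), Pitpnc1 (-0.24 ± 0.06), Srrm2, a splicing factor (-0.24 ± 0.05), and Vamp2, a vesicle fusion protein (-0.21 ± 0.05). All of these but Krt5 lost their call without replicate 3.

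**Figure D5:**
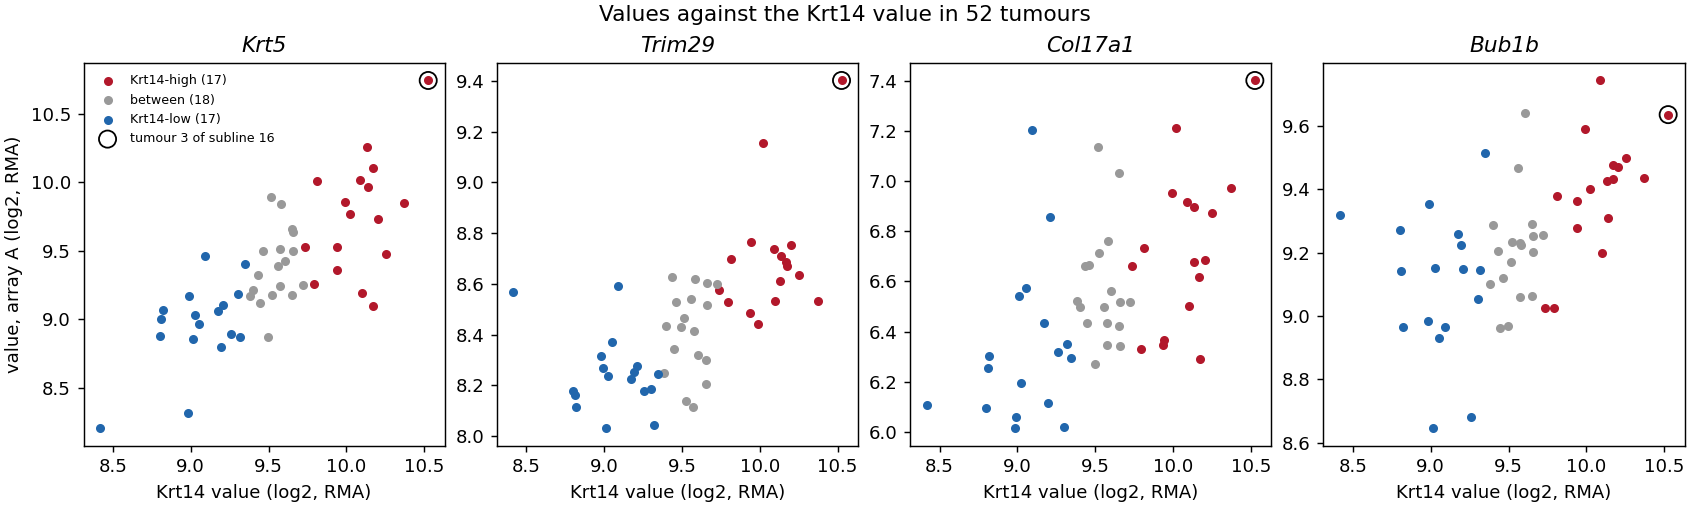
Values on array A (log2, RMA) against the Krt14 value in 52 tumours for Krt5, Trim29, Col17a1 and Bub1b, coloured by group, with tumour 3 of subline 16 ringed. The fitted slopes are 0.78, 0.38, 0.39 and 0.27, and the ringed tumour is the highest of all for Krt5, Trim29 and Col17a1.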

How the data were processed

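Total RNA of each tumour (Trizol, then a silica column) was labelled with biotin, per the labels' protocols. The authors deposited log2 expression values made with RMA, per the submitters' processing notes. Its version, the definition of the probe sets and the build are not given in the sources. Without the 64 control probe sets, array A had 22626 and array B 22511. Symbols came from the platform annotation (1 symbol for 20380 and 14661), and a probe set with several named no gene. Array precision is limited by the number of arrays.

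Groups were the 17 highest and 17 lowest of 52 tumours by the brightest Krt14 probe set. They were compared with limma 3.58.1 (lmFit, eBayes, R 4.3.3), within each array, and p-values were adjusted by Benjamini-Hochberg over all probe sets but the 3 of Krt14. The design named all probe sets and also barred a test of Krt14; leaving Krt14 out of the adjustment was decided after both counts were seen. The members and the 26 lists were chosen with earlier results of these data known. Lists use 1 probe set per gene, the brightest. Named genes are the called ones, all basal keratins and up to 4 per list with the smallest p; others are said to be chosen later. The alternatives were blocks for subline and replicate number, a dim filter, quantile normalization, centring, weights, a trended prior, other group sizes and rankings, a slope on Krt14, covariates, and leaving out replicates or sublines. Added after seeing the data were the fits without tumour 3 of subline 16 or tumour 1 of subline 21, the 26 against 26 fit with a fixed block, Krt14 kept in the adjustment, and every alternative of the slope. The script was tested on simulated data. Figures used matplotlib 3.10.9.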

Additional observations from a re-analysis of the deposited data

How the results depend on the processing

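The high against low count on array A was 4. It was 4 with subline as a random block, 3 to 21 with each subline left out and 0 to 2 with each replicate number left out. It moved to 1 with subline as a fixed block, 11 with quantile normalization, 204 with array quality weights, 192 for 13 against 13, 1 for 26 against 26 and 0 for that split with a fixed block, 1 ranked by Krt5 (none of the 4; Krt5 was then not tested), 46 ranked by the second Krt14 probe set, 714 as a slope and 7 with Krt14 kept in the adjustment. On array B the count was 0, and it was 27 with array quality weights, 1 ranked by Krt5 and 0 to 3 with a subline or replicate left out. With the replicate block 4 were called on array A, 3 of them the same, and 0 on array B; the slope gave 611 and 0. The labels show nothing but the number that same-numbered tumours share, and batches are not given in the sources. Their consensus correlations were -0.0261 on array A and 0.0315 on array B. Whether a batch goes with the replicate number was not tested.

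The slope count on array A was 714. It was 1 to 1429 with a replicate number or subline left out, 1539 with array quality weights, 332 on Krt5, 118 with the epidermal score, 360 with composition scores and 245 without tumour 3 of subline 16. On array B it was 0, but 165 with weights, 11 with quantile normalization, 10 without the 2 tumours farthest from the median Krt14 level, 7 on Krt5, 2 with composition scores and 0 to 36 with a replicate or subline left out. The cause of these shifts was not tested; leaving out tumours also leaves fewer samples.

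Over 2677 gene-level comparisons for 75 gene results, 2521 kept direction and side of the threshold, 82 lost a call, 38 gained one and 36 changed sign. Sign changes were in uncalled genes. With the epidermal score as a covariate Krt6a was -0.112, Krt16 -0.128, Krt6b -0.147, Krt28 -0.00598 and Tchh -0.0274. Ranked by Krt5, Itga6 was -0.0561, Myh11 0.0982, Cd22 0.0203, Mb 0.0717 and the brighter Krt17 probe set -0.0177. That Krt17 probe set was also -0.00251 with a random block, -0.0762 with a fixed block, -0.00536 with centring, -0.00362 for 26 against 26 and -0.0392 for that with a fixed block, -0.00424 by the second Krt14 probe set, -0.00577 as a slope, -0.00276 without tumour 1 of subline 21 and -0.0622 to 0.0367 in leave-one-out fits. Acta2 was -0.00854 with the replicate block, -0.0431 for 13 against 13 and -0.153 to 0.189 in leave-one-out fits. Tpm2 was 0.0313 for 26 against 26 with a fixed block and -0.253 to 0.0215 in leave-one-out fits.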
